A study of Capra hircus with 8 samples.

Results

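The cell division genes described here are 30 genes whose products copy DNA or separate chromosomes, found by their symbol among the 18815 genes of the first deposited count table. All 30 were found and all 30 passed the filter on low counts, which kept 14085 genes. They were split by role into 10 S phase genes (PCNA, MCM2, MCM3, MCM4, MCM5, MCM6, TYMS, RRM2, E2F1 and TK1) and 20 mitosis genes (MKI67, TOP2A, CCNB1, CCNB2, CCNA2, CDK1, CDC20, BUB1, BUB1B, AURKA, AURKB, PLK1, BIRC5, NUSAP1, TPX2, KIF11, KIF20A, CENPF, HMMR and NCAPG). Skin RNA of domestic goats (Capra hircus) was sequenced in a cashmere breed, kept for its fine undercoat, and in milk goats, at months 3, 6, 9 and 12. Each breed and month has 1 library, so each breed has 4 libraries and the study 8. No treatment, genotype or strain beyond the breed is given, and since the month stands under age in the labels and as a plain month in the design text, months of the year and months of life cannot be told apart. Whether a library came from 1 animal or several is not given, so every p-value measures only the spread between these libraries.

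A dividing cell first copies its DNA in S phase. The helicase subunits MCM2 to MCM6 open the double helix, PCNA clamps the polymerases to it, and TYMS, RRM2 and TK1 supply nucleotides. In mitosis CDK1, bound to the cyclins CCNA2, CCNB1 and CCNB2, drives entry, while a spindle of motors and kinases pulls the chromosomes apart. In skin, dividing cells lie in the basal layer of the epidermis and, while a follicle is in its growth phase, in the hair matrix at the base of the follicle, whose daughter cells build the keratin shaft. The mRNAs of many mitosis genes accumulate late in the cell cycle, after those of the S phase genes.

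Levels are given as CPM, a gene's read count relative to the reads of its library, after scaling the libraries by TMM, a factor that corrects for a few very abundant genes. Cashmere goat libraries held 7480053 to 8718429 reads and milk goat libraries 11333734 to 13899750, and 3 reads stand for 0.231 to 0.395 CPM. The milk goat library of month 9 had a TMM factor of 0.7832, against 0.9897 to 1.131 in the other 7 libraries. Dividing by library totals in place of TMM lowers all genes of that library alike, so counts of highest and lowest libraries below are given under both scalings. In whole skin, fewer dividing cells and less of these mRNAs per cell cannot be told apart.

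The members were low to moderate in abundance. Per length, in the authors' FPKM averaged over the 8 libraries, TOP2A, which untangles DNA, was highest at 19.4, followed by PCNA at 14.2, RRM2 at 11.9 and MKI67, the common label of cycling cells, at 9.84 FPKM. The lowest were PLK1 at 1.49, CCNB2 at 1.44 and CCNB1 at 0.768 FPKM.

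The months at which the members were lowest and highest were counted within each breed. In cashmere goats month 3 was the lowest library for 30 of 30 members, where 31.9% of all genes tested had their lowest value. Their highest cashmere library was month 12 for 15 members, month 9 for 12 and month 6 for CCNB2, AURKB and PLK1. In milk goats month 9 was the highest library for 29 of 30 members, against 30.3% of all genes, and the lowest library was month 12 for 20 members, against 27.6%, and month 3 for the other 10. NUSAP1, a microtubule-binding protein of the spindle, was the member not highest at month 9. Under library totals month 3 was the lowest cashmere library for 28 of 30 members (20% of all genes), month 9 the highest milk goat library for 23 (11.7%) and month 12 the lowest for 24 (21.2%).

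**Figure D1:**
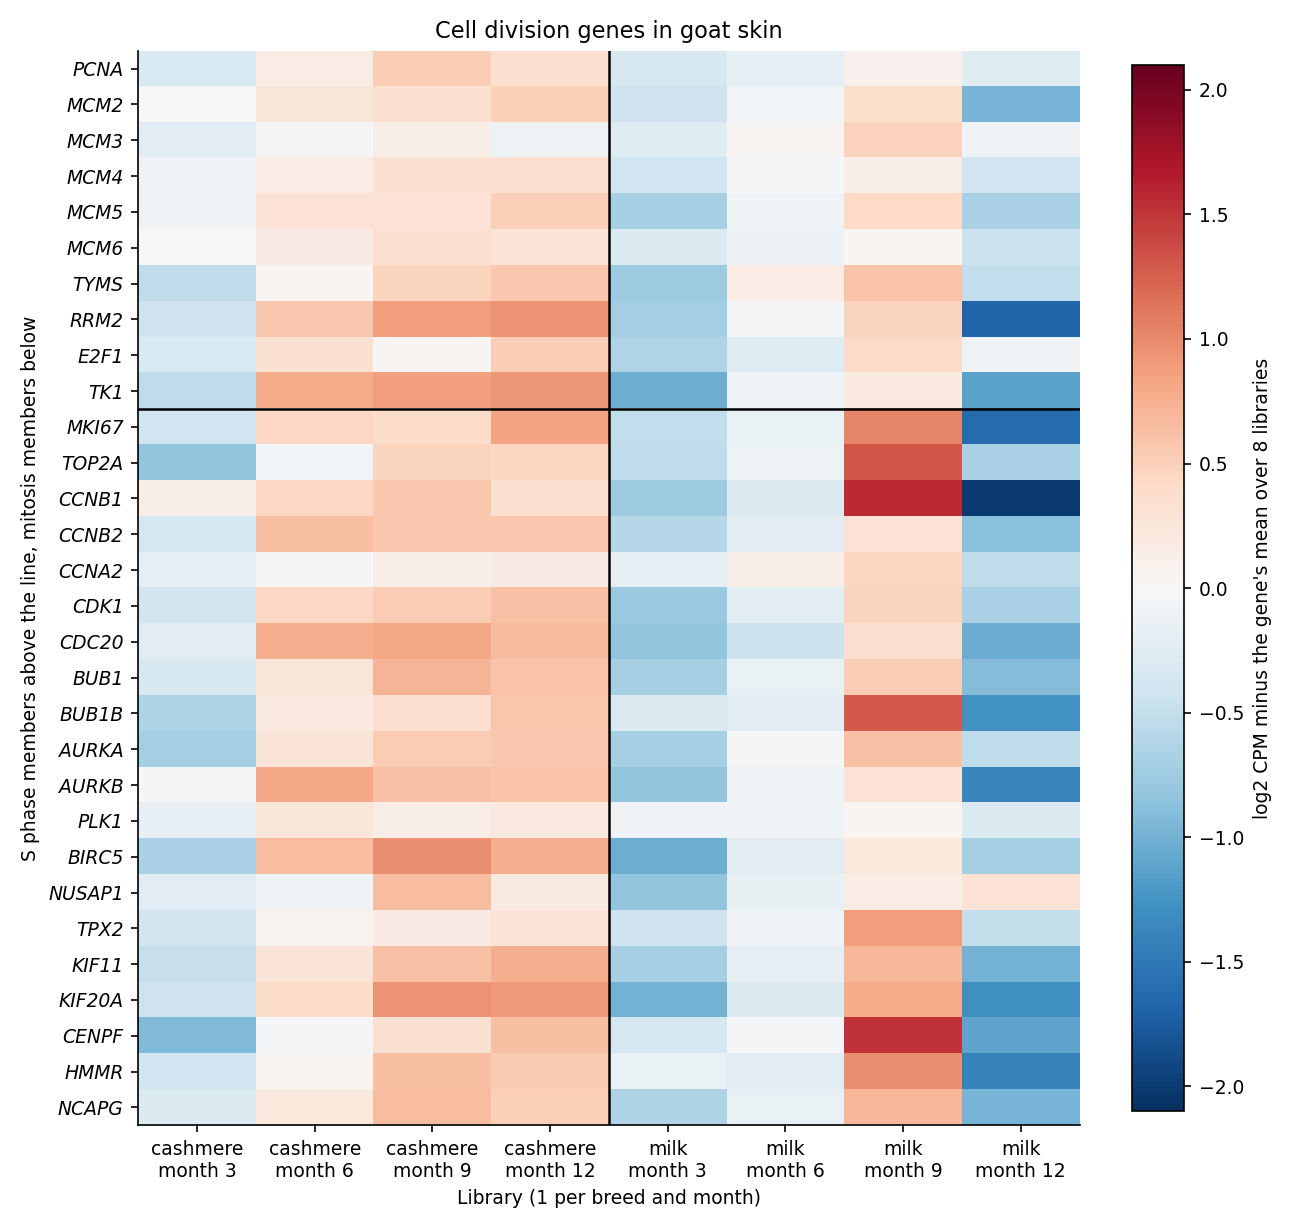
Log2 CPM of the 30 cell division genes in the 8 libraries, each gene minus its own mean. Columns are libraries, 4 of cashmere goats then 4 of milk goats, by month. Rows are genes, S phase members above the horizontal line and mitosis members below. The month 3 library is the lowest of the cashmere goats for all 30, and the milk goats' month 9 library is their highest for 29.

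Among the S phase genes, RRM2, the regulated subunit of ribonucleotide reductase, spanned the widest range. It stood at 40.6, 80.7, 99.9 and 105 CPM in cashmere goats at months 3, 6, 9 and 12, and at 33.2, 53.9, 75.3 and 17.1 CPM in milk goats. The breeds overlapped, and the lowest of all libraries was milk goats at month 12. TK1, the thymidine kinase of the salvage pathway, stood at 3.21, 7.95, 8.36 and 8.82 CPM in cashmere goats and at 2.28, 4.31, 5.33 and 2.11 CPM in milk goats. Its cashmere month 3 library lay within the milk goat range and its other 3 cashmere libraries lay above it. TYMS, which makes thymidylate, stood at 12.6, 18.8, 25.2 and 27.0 CPM in cashmere goats and at 10.9, 20.3, 27.7 and 12.9 CPM in milk goats. Its milk goat libraries of months 6 and 9 were above the cashmere libraries of the same months, at month 9 with TMM but not under library totals.

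MCM2 and MCM5 are subunits of the helicase. MCM2 stood at 24.6, 29.5, 30.9 and 34.9 CPM in cashmere goats and at 18.2, 23.7, 31.7 and 12.5 CPM in milk goats. MCM5 stood at 19.3, 25, 25.2 and 28.7 CPM in cashmere goats and at 12.5, 19.3, 27.0 and 12.7 CPM in milk goats. Both were lower in milk goats at months 3, 6 and 12 than in any cashmere library. At month 6 the margin was small for MCM5, at 19.33 against 19.35 CPM in cashmere goats at month 3. MCM3 stood at 44.3, 50.9, 56.0 and 48.1 CPM in cashmere goats and at 43.2, 53.6, 72.1 and 49.2 CPM in milk goats, so that it was above its cashmere value in 3 of 4 milk goat libraries, and in 2 of 4 under library totals. PCNA stood at 39.5, 54.4, 69.8 and 62.9 CPM in cashmere goats and at 38.7, 42.8, 52.2 and 41.0 CPM in milk goats. E2F1, a transcription factor that switches on S phase genes, stood at 7.56, 11.8, 9.74 and 13.4 CPM in cashmere goats and at 6.11, 7.86, 12.5 and 8.99 CPM in milk goats. The breeds overlapped for both genes. MCM4 ranged from 34.5 to 58.1 CPM and MCM6 from 39.1 to 68.3 CPM over the 8 libraries.

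Of the 20 mitosis members 10 had their highest library of the 8 in milk goats at month 9 and 10 in a cashmere library, and 15 had their lowest in milk goats at month 12. Under library totals these counts were 5, 15 and 17. MKI67 stood at 127, 229, 222 and 306 CPM in cashmere goats and at 119, 154, 346 and 55.5 CPM in milk goats. TOP2A stood at 93.7, 160, 228 and 227 CPM in cashmere goats and at 114, 153, 408 and 103 CPM in milk goats. CENPF, a kinetochore protein, stood at 66.1, 123, 157 and 193 CPM in cashmere goats and at 96.8, 124, 359 and 58.0 CPM in milk goats. For all 3 genes milk goats at month 9 were the highest library of the 8 with TMM, while under library totals MKI67 was highest in cashmere goats at month 12. Milk goats at month 12 were the lowest for MKI67 and CENPF under both scalings. CCNB1, the main cyclin of mitotic entry, stood at 1.95, 2.41, 2.63 and 2.24 CPM in cashmere goats and at 1.06, 1.46, 5.24 and 0.44 CPM in milk goats. Its last value rests on 5 reads against 57 at month 9, and the log2 ratio of these libraries was -3.09 with an exact binomial 95% interval of -5.25 to -2.27. Such intervals cover counting error only and hold no spread between libraries. They can be too narrow even for that error, because reads copied by PCR and not marked by molecular identifiers can come from the same molecule.

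CDK1, the kinase of mitotic entry, stood at 21.3, 37.6, 40.2 and 42.5 CPM in cashmere goats and at 16.2, 23.5, 38.3 and 17.2 CPM in milk goats. CCNB2 stood at 2.75, 5.54, 5.27 and 5.27 CPM in cashmere goats and at 2.36, 3.00, 4.41 and 1.94 CPM in milk goats. Both were higher in cashmere goats in every month. CCNA2, a cyclin of S phase and mitotic entry, stood at 15.9, 18.4, 19.9 and 20.4 CPM in cashmere goats and at 15.8, 19.9, 24.8 and 12.5 CPM in milk goats, higher in milk goats at months 6 and 9, the latter with TMM but not under library totals. PLK1, a kinase of spindle assembly, stood at 14.2, 19.3, 17.6 and 18.4 CPM in cashmere goats and at 15.2, 15.2, 16.5 and 13.0 CPM in milk goats. With TMM, PLK1 varied least of the 30 over the 8 libraries, with a highest value 1.48 times its lowest.

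CDC20, AURKB and BIRC5 act when the chromosomes are attached to the spindle and pulled apart. CDC20, which activates the complex that starts chromosome separation, stood at 4.92, 9.87, 10.2 and 9.22 CPM in cashmere goats and at 3.26, 4.24, 7.35 and 2.82 CPM in milk goats. AURKB, the kinase that corrects spindle attachments, stood at 5.72, 10.2, 9.05 and 8.95 CPM in cashmere goats and at 3.34, 5.55, 7.26 and 2.29 CPM in milk goats. BIRC5, its partner survivin, stood at 7.44, 18.7, 23.5 and 20.3 CPM in cashmere goats and at 5.86, 10.2, 13.9 and 7.31 CPM in milk goats. All 3 were higher in cashmere goats in every month. For these genes each cashmere library of months 6, 9 and 12 was above every milk goat library, and the month 3 library was within the milk goat range. BUB1, a checkpoint kinase, stood at 10.6, 16.0, 22.0 and 20.3 CPM in cashmere goats and at 8.22, 12.1, 19.1 and 7.14 CPM in milk goats. KIF11, a motor that pushes the spindle poles apart, stood at 20.3, 34.3, 43.3 and 48.3 CPM in cashmere goats and at 17.4, 25, 46.2 and 14.3 CPM in milk goats. NUSAP1 stood at 25.1, 27.7, 45.6 and 33.2 CPM in cashmere goats and at 16.4, 26.1, 32.5 and 35.9 CPM in milk goats, where month 12 was its highest library. The remaining 6 mitosis members are described by their ranges over the 8 libraries. AURKA, a spindle pole kinase, ranged from 5.50 to 13.9 CPM, HMMR from 3.26 to 17.3 CPM and KIF20A, a motor of cell separation, from 5.20 to 24.5 CPM. BUB1B, a checkpoint protein, ranged from 6.43 to 38.0 CPM, TPX2, a spindle assembly factor, from 26.6 to 68.6 CPM and NCAPG, a subunit of condensin, from 14.1 to 45.2 CPM.

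The breeds were first compared over all months, with month as a term in the model, in edgeR's quasi-likelihood test with Benjamini-Hochberg adjustment over all genes tested. None of the 30 members passed an adjusted p of 0.05, where 4.79% of all genes did (675 genes, 207 higher and 468 lower in cashmere goats). Fold changes were positive, that is, higher in cashmere goats, for 28 members and negative for MCM3 and CENPF, and their median was 0.462 on the log2 scale against 0.028 over all genes tested. Without the milk goat library of month 12 the fold changes were positive for 21 members, with a median of 0.20. Without the cashmere library of month 12, or without both libraries of that month, they were positive for 22, with a median of 0.22. A library left alone in its month is fitted by its month term and carries no information on the breed contrast. So these fits are all the same comparison over the other months, not separate checks. They cannot tell which library of month 12 matters. With all libraries the medians were 0.386 for S phase members and 0.527 for mitosis members. An unadjusted p under 0.05 was found for 13 members, 6 of S phase and 7 of mitosis, and for 3786 of the 14085 genes tested.

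BIRC5 had the lowest adjusted p of the members. Its mean was 17.5 ± 6.98 CPM (SD, n = 4) in cashmere goats and 9.33 ± 3.54 CPM (SD, n = 4) in milk goats, a log2 fold change of 0.87 ± 0.21 (SE) with an edgeR adjusted p of 0.0607. CDC20 had a log2 fold change of 0.99 ± 0.26 (edgeR adjusted p = 0.0749), with means of 8.55 ± 2.45 and 4.42 ± 2.05 CPM (SD, n = 4). TK1 had 1.01 ± 0.30 (edgeR adjusted p = 0.095), the largest fold change of the 30. AURKB had 0.95 ± 0.29 (edgeR adjusted p = 0.097). These 4 genes were higher in cashmere goats in 4 of 4 months. In DESeq2, which called 12.2% of all genes, CDC20, AURKB and BIRC5 passed with adjusted p of 0.029, 0.0494 and 0.0134, and TK1 passed with an adjusted p that rounds to 0.05. These 4 genes and CDK1 passed in limma on log2 FPKM with either pseudocount, and CCNB2 with a pseudocount of 1. There limma called 9.76% of all genes with a pseudocount of 1 and 8.24% with 0.1. The FPKM were used as the authors gave them, without TMM. In both limma runs, as under library totals, the fold changes of all 30 members were positive, against 28 in the main fit. RRM2 had a log2 fold change of 0.93 ± 0.38 and KIF20A of 0.87 ± 0.32, with edgeR adjusted p of 0.168 and 0.144. MKI67, with means of 220.9 ± 73.2 and 168.6 ± 125 CPM (SD, n = 4), had 0.58 ± 0.46. With the milk goat library of month 12 left out, and so without a breed comparison at that month, its value was -0.015. TOP2A at 0.01 ± 0.30, CENPF at -0.04 ± 0.44 and MCM3 at -0.11 ± 0.12 had fold changes smaller than their standard errors, and the sign of each differed between scalings or tools.

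**Figure D2:**
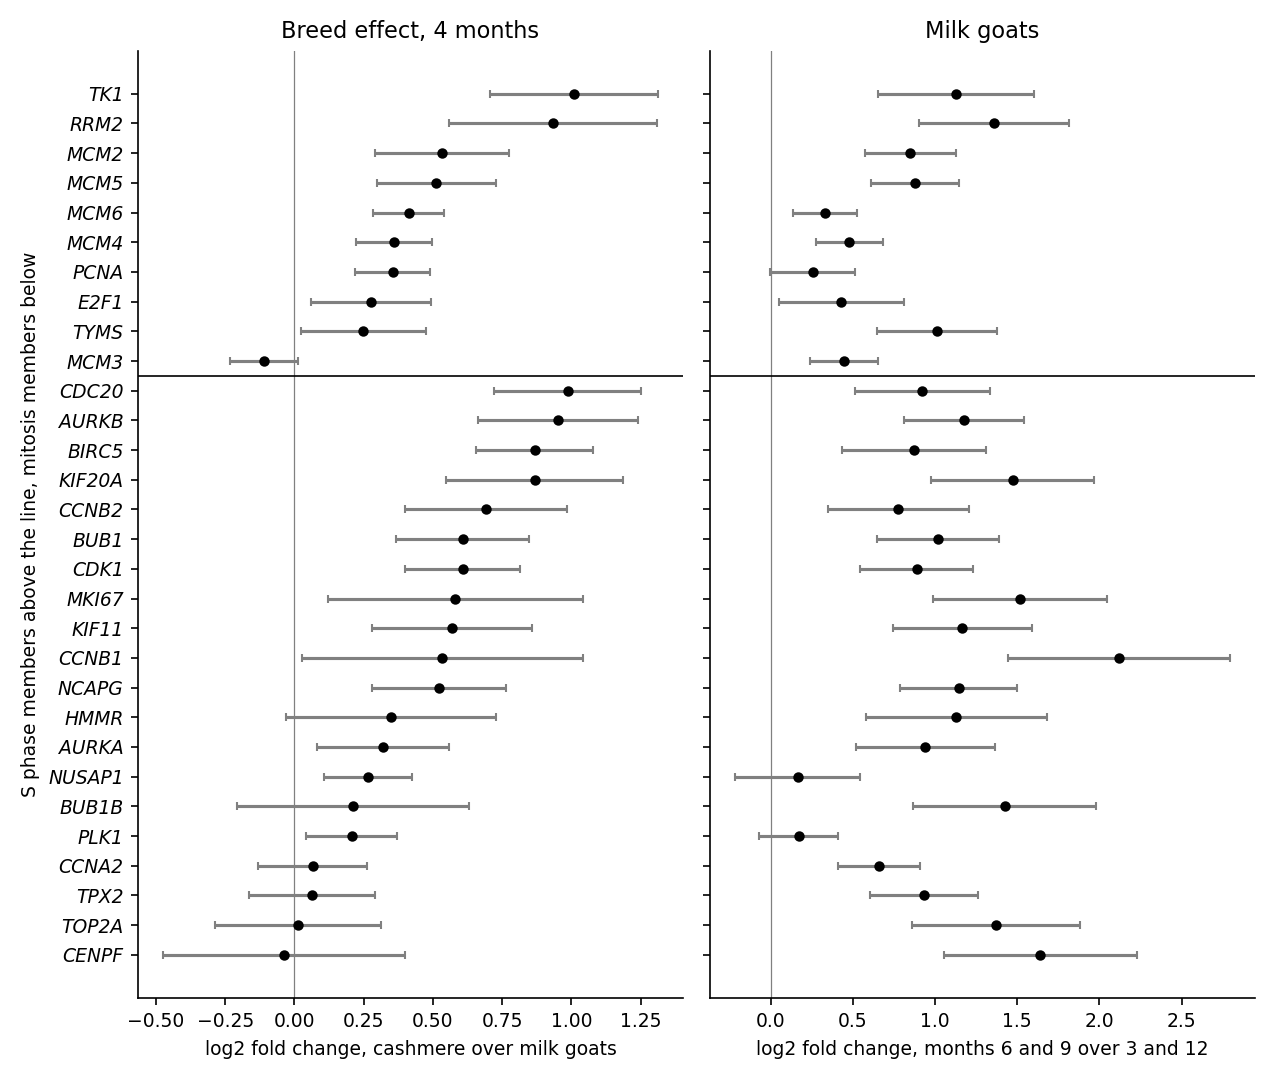
Log2 fold changes of the 30 members with their standard errors from edgeR, S phase members above the line and mitosis members below. The left panel is the breed effect over 4 months (cashmere over milk goats) and the right panel months 6 and 9 over months 3 and 12 in milk goats. On the left 28 of 30 points are above 0, and on the right 30 of 30 are.

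Cashmere goats were higher in 4 of 4 months for 12 members: PCNA, MCM4, MCM6, RRM2 and TK1 of S phase, and CCNB2, CDK1, CDC20, BUB1, AURKB, BIRC5 and KIF20A of mitosis. Among all genes tested 19.6% were. Under library totals the count was 17 of 30, and 26.3% of all genes. The ranges of the breeds did not overlap, with cashmere goats higher, for 0 of 30 members and for 6.46% of all genes. Under library totals PCNA, MCM2, MCM4, MCM5, MCM6 and AURKB did not overlap, 6 of 30, and 12.0% of all genes did not.

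Month by month, the breed ratio of the members was unlike in size. Each ratio compares a single library of each breed and has no test. At month 3 the median log2 ratio of cashmere over milk goats was 0.294 and 24 of 30 members were higher in cashmere goats, and no member reached 2-fold, as 3.88% of all genes did. At month 6 the median was 0.363 with 26 of 30 higher, and CDC20 alone was over 2-fold, at 9.87 against 4.24 CPM, where 2.32% of all genes were. At month 9 the median was -0.047, with 14 members higher in cashmere goats and 16 lower. No member was 2-fold higher in cashmere goats at month 9, as 5.29% of all genes were, and CENPF alone was 2-fold lower, with 6.06% of all genes. Under library totals the median of the members at month 9 was 0.306 and that of all genes tested 0.409, so relative to all genes the members were not higher in cashmere goats under either scaling.

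At month 12 the median log2 ratio was 1.40, with 28 of 30 members higher in cashmere goats and 21 of them at least 2-fold higher, where 9.68% of all genes were. These were 5 of 10 S phase members and 16 of 20 mitosis members. RRM2 had the highest ratio, 6.16-fold (800 reads against 194), followed by MKI67 at 5.51-fold (2322 reads against 630). NUSAP1 and MCM3 were the only members not higher in cashmere goats at month 12, with log2 ratios of -0.11 and -0.04. The median of all genes tested at month 12 was -0.02.

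**Figure D3:**
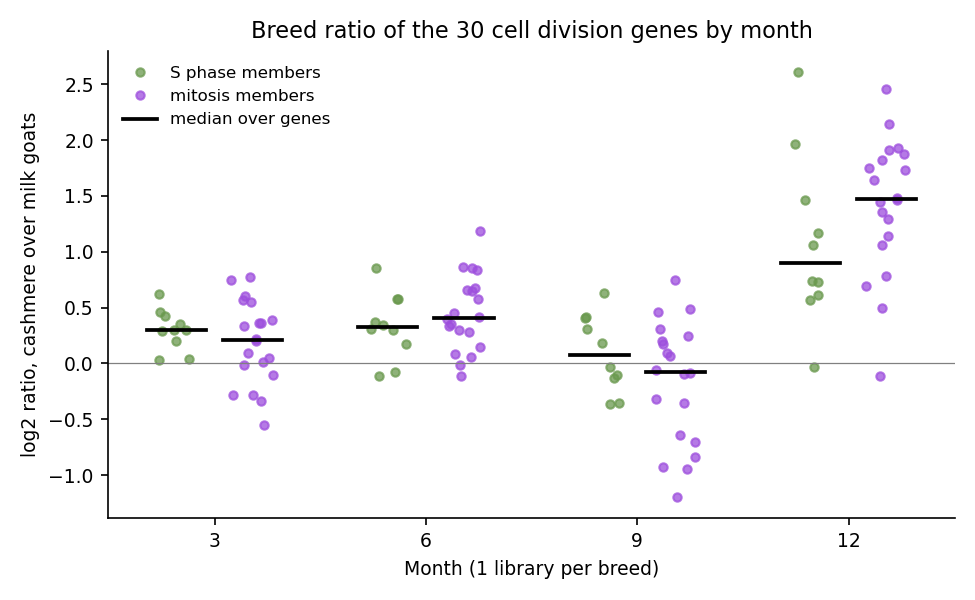
Log2 ratio of cashmere over milk goats for each member at months 3, 6, 9 and 12, 1 library per breed and month, with S phase and mitosis members side by side and black bars at the median over genes. Medians are 0.301 and 0.209 at month 3, 0.328 and 0.408 at month 6, 0.072 and -0.073 at month 9, and 0.896 and 1.47 at month 12, S phase first.

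The month effect, a joint test of the month terms with breed in the model, called 0 of 30 members and 0.0% of all genes in edgeR's quasi-likelihood test, while 8 members and 1894 genes had an unadjusted p under 0.05. The lowest edgeR adjusted p of a member was 0.331, for BIRC5. DESeq2 called 536 genes (3.81%), TOP2A and BIRC5 among them. Without the cashmere library of month 12, when the milk goat library alone stands for that month, edgeR called 1180 genes (8.22%) and 14 members.

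Within cashmere goats 11 of 30 members were at least 2-fold higher at month 9 than at month 3, where 4.62% of all genes were, and the median log2 ratio was 0.902. From month 9 to month 12 the median was 0.016, and no member was 2-fold lower, as 2.25% of all genes were. In milk goats 21 of 30 members were at least 2-fold higher at month 9 than at month 3 (8.87% of all genes), with a median log2 ratio of 1.17. At month 12, 21 of 30 were at least 2-fold lower than at month 9 (9.29% of all genes), with a median of -1.29. Under library totals these medians in milk goats were 0.709 and -0.964, and those of all genes -0.472 and 0.384.

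To set the unlike courses beside a spread between libraries, months 6 and 9 were compared with months 3 and 12 within each breed. This split was chosen with earlier results of these data known, so its p-values are no independent test of the courses. In cashmere goats the split places month 12, the highest library for 15 of 30 members, with month 3, the lowest for 30. That rise is thus counted as spread. In milk goats 30 of 30 members were higher at months 6 and 9, with a median log2 fold change of 0.937 against -0.036 over all genes. None passed the edgeR threshold, which 1.33% of all genes did (188 genes, all higher). An unadjusted p under 0.05 in that test was found for 19 members and for 1715 of the 14085 genes tested. CCNB1 had the largest value, 2.12 ± 0.68, then CENPF at 1.64 ± 0.59 and MKI67 at 1.52 ± 0.53, each with its SE. MCM5 at 0.88 ± 0.27 had the lowest edgeR adjusted p, 0.238, and NUSAP1 the smallest fold change, 0.16 ± 0.38, whose sign turned under library totals. DESeq2 called MKI67 and CENPF, each at an adjusted p of 0.0435, with 3.41% of all genes.

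In cashmere goats the same 30 members had positive values with a median of 0.254, between MCM2 at 0.02 ± 0.27 and BIRC5 at 0.61 ± 0.43. edgeR called 0 members and 0.0% of all genes there, with 0 members and 379 genes at an unadjusted p under 0.05, and DESeq2 called 8 genes. Without the month 3 library the median was -0.153 and without the month 12 library 0.801. The difference between the breeds in this contrast was tested itself. It was negative, that is, smaller in cashmere goats, for 27 of 30 members, with a median of -0.749 against 0.009 over all genes. edgeR called 0 members and 0.0% of all genes, with 0 members and 477 genes at an unadjusted p under 0.05, and DESeq2 called 99 genes and 0 members. CCNB1 had the lowest value, -1.85 ± 0.94, followed by CENPF at -1.53 ± 0.82 and MKI67 at -1.46 ± 0.74, and NUSAP1 the highest at 0.17 ± 0.54.

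S phase and mitosis genes moved over the months by different amounts. For each library the log2 CPM of the members, each centred on its mean over the 8 libraries, was averaged within each role. In cashmere goats the S phase level was -0.245, 0.267, 0.411 and 0.475 at months 3, 6, 9 and 12, and the mitosis level -0.40, 0.29, 0.525 and 0.527. In milk goats the S phase level was -0.547, -0.065, 0.316 and -0.613, and the mitosis level -0.584, -0.16, 0.693 and -0.892. Both roles had their highest cashmere level at month 12 and their highest milk goat level at month 9. From lowest to highest month the S phase level spanned 0.72 in cashmere goats and 0.929 in milk goats, and the mitosis level 0.927 and 1.58. These averages are descriptions without a test.

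The S phase level minus the mitosis level lay between -0.114 and 0.155 in the 4 cashmere libraries. In milk goats it was 0.038 and 0.095 at months 3 and 6, -0.378 at month 9 and 0.279 at month 12, so the lowest and the highest of the 8 libraries were both of milk goats. Library totals give -0.379 and 0.279 for months 9 and 12 of milk goats, and log2 FPKM with a pseudocount of 1 gives -0.294 and 0.08. The mitosis members were not alike at months 9 and 12 of milk goats. The SD over the 20 genes was 0.441 and 0.469 there, against 0.264 and 0.12 at months 3 and 6, and 0.213 to 0.257 in cashmere goats. The S phase members had an SD of 0.187 at month 9 and 0.5 at month 12 of milk goats. At month 9 of milk goats TOP2A, CENPF, MKI67, BUB1B and CCNB1 lay furthest up, while PLK1 and NUSAP1 were near their means.

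Gene by gene, the ratio of the highest to the lowest month had a median of 1.62 in cashmere goats and 2.1 in milk goats for S phase members, and of 2.07 and 2.92 for mitosis members. In milk goats it ran from 1.27 for PLK1 to 11.9 for CCNB1, and in cashmere goats from 1.26 for MCM3 to 3.16 for BIRC5.

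**Figure D4:**
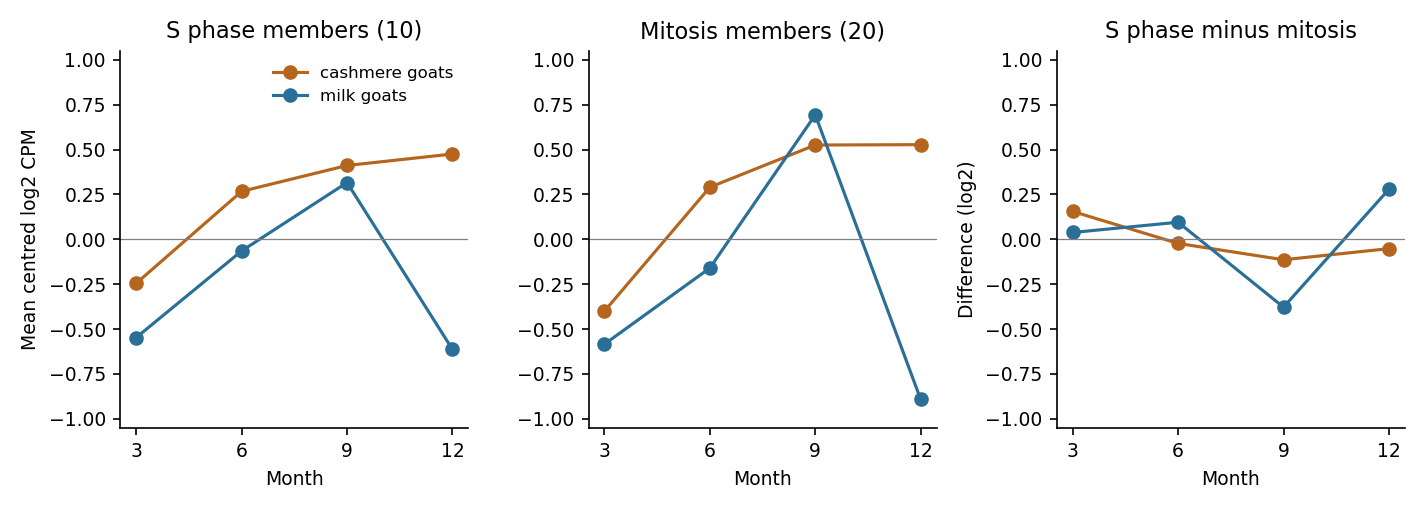
Mean centred log2 CPM of the 10 S phase members and the 20 mitosis members, and their difference, by month in each breed, with 1 library per point. The milk goat line of the mitosis members goes from 0.693 at month 9 to -0.892 at month 12, while the cashmere line stays at 0.525 and 0.527.

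Hair shaft transcripts were taken as the share of reads in 8 of 17 listed hair shaft keratins, those found in the table. The share was 0.0885, 0.206, 0.2 and 0.157% in cashmere goats at months 3, 6, 9 and 12, and 0.0259, 0.143, 0.183 and 0.00675% in milk goats. Milk goats at months 12 and 3 had the lowest shares. Over the 8 libraries, log2 CPM of the members had a median Pearson r of 0.848 with the log2 share, against -0.031 over all genes tested. In an exact two-sided permutation test over the 40320 pairings, run for every gene, 23 members had p under 0.05 (25.2% of all genes did). After Benjamini-Hochberg adjustment 16 of 30 members passed 0.05, 5 of S phase and 11 of mitosis, where 7.23% of all genes did. The test shuffled the 8 libraries freely, without terms for breed or month. It cannot separate a link to the share from differences between breeds or months that both quantities follow.

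MCM2 had the highest r, 0.955 (exact permutation p = 0.00213, adjusted p = 0.039) with a Spearman rho of 0.738 (exact permutation p = 0.0458, adjusted p = 0.197). AURKB had r = 0.952 (exact permutation p = 0.00067, adjusted p = 0.0283) with a rho of 0.952 (exact permutation p = 0.00114, adjusted p = 0.0799). RRM2 had r = 0.934 (exact permutation p = 0.000744, adjusted p = 0.0285) and MKI67 r = 0.895 (exact permutation p = 0.00144, adjusted p = 0.0341), with rho of 0.833 and 0.81. NUSAP1 had the lowest r, 0.227 (exact permutation p = 0.526), and MCM3 the lowest of S phase, 0.443 (exact permutation p = 0.263). The median r was 0.861 for S phase members and 0.835 for mitosis members, whose difference was not tested. By Spearman's rho 0 members and 0 genes passed the adjusted threshold.

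The libraries were not spread evenly along this axis. Without milk goats at months 3 and 12, the libraries farthest from the median share, the median r of the members was 0.727. It ranged from 0.458 to 0.878, against a median of -0.007 over all genes tested, and 0 members passed. With 6 libraries there are fewer pairings and the smallest possible p is larger, so the count of adjusted calls cannot be compared with that over 8. Leaving out single libraries left between 0 and 9 members past the threshold, a count with the same limit. Within a breed 4 libraries are too few for a correlation, and the relation was not tested there.

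**Figure D5:**
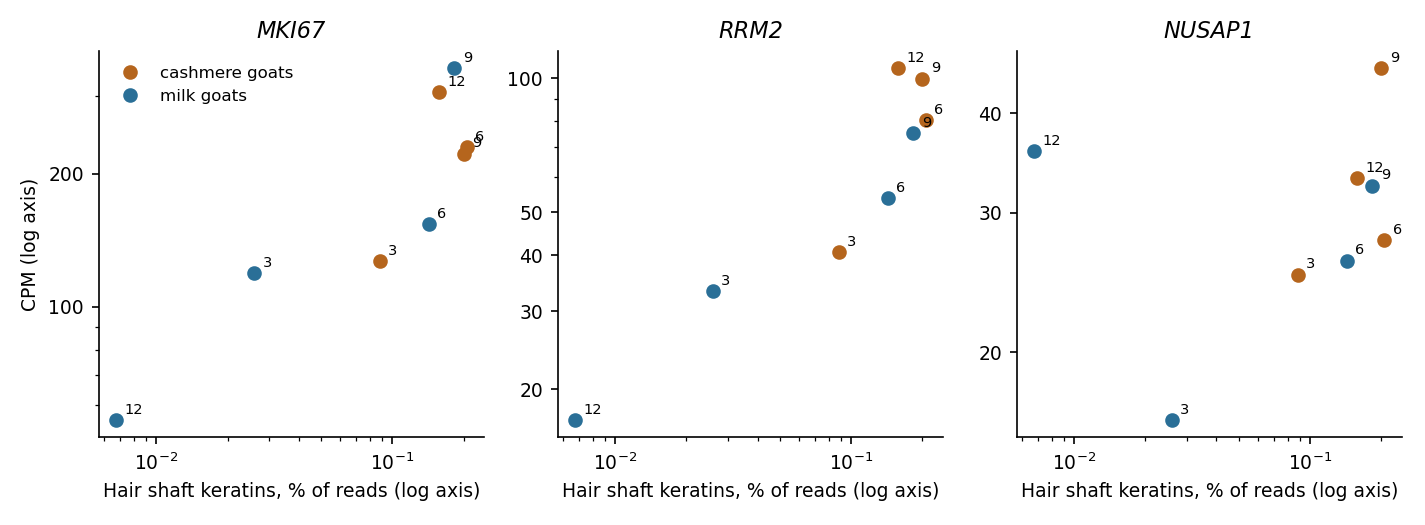
CPM of MKI67, RRM2 and NUSAP1 against the share of reads in hair shaft keratins, in percent, in the 8 libraries, both axes logarithmic, with the month beside each point. MKI67 and RRM2 are lowest in milk goats at month 12, where the share is 0.00675%, and NUSAP1 at 35.9 CPM is not.

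Other genes of the same pathways were counted from lists. Of 45 other replication genes tested, 33 were higher in cashmere goats in the breed effect (median 0.277 on the log2 scale), and 1 passed, where 4.79% of all genes did. This was GINS2, a helicase subunit (1.06 ± 0.23, edgeR adjusted p = 0.0472). GINS2 stood at 8.36, 9.87, 9.97 and 9.61 CPM in cashmere goats and at 4.40, 6.01, 5.06 and 3.00 CPM in milk goats, without overlap. Of 53 other mitosis genes tested, 42 were higher in cashmere goats, with a median of 0.433, and 1 passed in the other direction, against the same 4.79%. This was SMC4, a condensin subunit, at 104, 90.3, 144 and 152 CPM in cashmere goats and 179, 177, 333 and 253 CPM in milk goats (-0.92 ± 0.15, edgeR adjusted p = 0.0287). In milk goats 52 of these 53 were higher at months 6 and 9, with a median of 0.972, and 34 of the 45 replication genes, with a median of 0.248, and 0 of either list passed.

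The genes that lead into and hold back the cycle gave 0 calls in these tests. Of 20 G1 cyclins, their kinases and partners, 15 were higher in cashmere goats. CCND1, a cyclin of the step before S phase, stood at 369 to 573 CPM in cashmere goats and 536 to 800 CPM in milk goats (log2 fold change -0.53). CCND2 stood at 187 to 244 CPM in cashmere goats and 146 to 229 CPM in milk goats (0.34). Of 14 cell cycle inhibitors tested 10 were higher in cashmere goats, among them CDKN1A, the p53 target, at 134 to 181 and 88.8 to 154 CPM (0.37), while CDKN1B had 128 to 169 and 145 to 187 CPM (-0.19). Hair shaft keratins, by contrast, passed in milk goats at months 6 and 9 against 3 and 12 for 7 of 8 genes, with a median of 3.64, as did 7 of 18 hair matrix regulators, where 1.33% of all genes did. This split of the months was chosen with earlier results of these data known.

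Markers of the cell types in skin were summed beside these values, and their part in the results was not tested. The basal epidermis list (7 of 8 markers found) summed to 16700 to 19290 CPM in cashmere goats and 14590 to 21050 CPM in milk goats, and 0 of its 7 genes passed in any comparison. The suprabasal list (7 of 8) summed to 16670 to 24110 and 24000 to 47660 CPM, highest in milk goats at month 12, the library in which 19 members had their lowest value (24 under library totals). Of that sum the keratins KRT1 and KRT10 gave 21100 and 15400 CPM. LOR was also highest there, at 1730 CPM against 440 to 892 CPM in the other libraries. IVL at 96.4, DSC1 at 548 and DSG1 at 940 CPM had their lowest value of the 8 libraries there, so the list did not move as one. IVL, a protein of the cornified envelope, passed in milk goats at months 6 and 9 against 3 and 12 (log2 fold change 4.01, edgeR adjusted p = 0.0211), 1 of 7 in that list. Fibroblast markers (6 of 6) ranged from 2306 to 33330 CPM in cashmere goats and from 2250 to 19230 CPM in milk goats. Endothelial markers (6 of 6) lay at 224 to 563.4 and 216.6 to 717.1 CPM, and T cell markers (6 of 6) at 13.6 to 18.4 and 10.4 to 25.4 CPM. Macrophage markers (5 of 6) lay at 68.6 to 96.2 and 48.0 to 144.5 CPM. Skeletal muscle markers (4 of 6) summed to 131.3 to 235.7 and 442.7 to 993.3 CPM, nearly all of it DES at 129 to 234 and 442 to 944 CPM, a gene also of smooth muscle, which was lower in cashmere goats (-1.63, edgeR adjusted p = 0.0325). TNNT3, a gene of skeletal muscle fibres, overlapped, at 0.573 to 1.19 and 0.46 to 10.7 CPM. No marker found was at 0 in any library.

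The genes outside the members whose log2 CPM followed the members' mean most closely over the 8 libraries, among genes of at least 5 CPM on average, were PDZRN3 (Pearson r 0.995), SLC39A6 (0.991), KIF4A (0.99), NDC80 (0.99), PSME3 (0.989), WDR26 (0.989), NCAPG2 (0.986), TBC1D23 (0.986), SUCO (0.985) and P4HA3 (0.983). KIF4A, NDC80 and NCAPG2 are in the list of other mitosis genes. PDZRN3 stood at 144, 247, 346 and 366 CPM in cashmere goats and at 94.6, 170, 407 and 74.0 CPM in milk goats. The 8 libraries share breed, month and depth, so these values are a description.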

How the data were processed

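Polyadenylated RNA of goat skin was sequenced as directional paired-end libraries, per the labels, whose protocol text speaks of embryos although the tissue is given as skin. Bowtie2 is named in the submitters' processing notes. Its role, its version and the genome build were not given in the sources used here, so no coordinates or sequences are printed. The authors deposited raw read counts per gene for the gene set used here and for a second gene set, which holds 27 of the 30 members, and FPKM values they computed for the first. The planned description of promoter motifs was not made, since no promoter sequence was used here.

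Counts were tested with edgeR 4.0.16 (R 4.3.3): filterByExpr on the breed, TMM, quasi-likelihood F tests and Benjamini-Hochberg adjustment over 14085 genes at 0.05. One model held month and breed (3 residual degrees of freedom), and its residual is the change of the breed difference between months. The other held breed, half-year and their interaction (4). Months are shared by the breeds, so month is the pairing block. Standard errors were derived from each fold change and F statistic, and the prior count of log2 CPM was 2. Relations to hair shaft keratins used exact permutation tests without terms for breed or month. The scripts were tested on simulated data. Alternatives were RLE factors, library totals, TMM without hair genes, other filters, DESeq2 1.42.0, limma 3.58.1 on log2 FPKM (pseudocount 1 or 0.1), the second gene set, no month term and each library left out. The second gene set, the breed effect without month 12 and the order of levels under library totals were chosen after seeing the data.

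The members, the gene lists and the half-year split were chosen with earlier results of these data known. Named were all members, every list gene past the threshold (at most 4 a list) or otherwise the 2 most abundant, and the 10 genes nearest the members' mean.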

Additional observations from a re-analysis of the deposited data

Results flagged for a closer look

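In 3 of 66 groups of 4 libraries (each member and the S phase, mitosis and joint levels, in each breed, on log2 CPM), the lowest or highest library stood apart from the others by more than Dixon's 95% critical value for 4 samples. Chance flags about 1 group in 20, which is about the share found. The 4 libraries of a breed are different months and not replicates, and the groups are not independent of each other. All 3 are the month 3 library of the cashmere goats, lowest for CCNB2 at 2.75 CPM (gap over range 0.927), for TK1 at 3.21 CPM (0.895) and for CDC20 at 4.92 CPM (0.86). The same library is the lowest of the cashmere goats for all 30 members. With 1 library per month, an unusual library and a real difference of month 3 cannot be told apart.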

How the results depend on the processing

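The median breed difference of the members stayed positive under every alternative run, from 0.20 to 0.69. Of the values that answer a comparison, 240 alternatives were near the main value and 65 were not. The rule for near was wide. A median breed difference counted as near within 0.547, its SD over months, which is more than the main median of 0.462. A count of 0 in both fits also counted as near. So the number of near values is no measure of robustness. The count of members called in the breed effect was 1 with library totals, 1 without a filter (BIRC5 both), 1 in the second gene set (CDC20), 4 in DESeq2, and 6 and 5 in limma with a pseudocount of 1 and 0.1. The count over all genes was 1712, 1374 and 1161 in DESeq2 and limma, 1094 in the second gene set and 346 without the replicate block by month, which changed no member's call. Leaving out single libraries gave 0 to 869 genes, and 4 or fewer without any of 6 of the libraries. For the month effect DESeq2 called 536 genes and 2 members, and leaving out a library gave 0 to 1180 genes and 0 to 14 members. For the breed by half-year test no filter gave 41 genes, DESeq2 99 and single libraries left out 0 to 2, and the members' median was -0.33 in limma with a pseudocount of 1 and -1.13 to -0.21 with a library left out. In milk goats no filter gave 416 genes, DESeq2 481 genes and 2 members, libraries left out 0 to 274 genes, and the median 0.54 to 1.28. In cashmere goats no filter gave 1 gene, DESeq2 8 and limma with a pseudocount of 1 gave 1, and the median ran from -0.15 to 0.80. The cause of these changes was not tested.

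Of the members related to hair shaft keratins, 0 passed by Spearman's rho, whose median was 0.798. Without the 2 farthest libraries 0 passed and the median r was 0.727. Single libraries left out gave 0 to 9 called, with median r of 0.821 to 0.877. Fewer libraries leave fewer pairings, so these counts of calls cannot be compared with that over all libraries. The range over months in milk goats was 0.572 (log2 FPKM + 1) and 0.594 (library totals) for S phase, and 0.935 (log2 FPKM + 1) for mitosis. Under library totals 22 members were higher in cashmere goats at month 9 (14 with TMM) and 6 did not overlap between breeds (0 with TMM).

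Signs turned for values near 0. TOP2A in the breed effect was -0.0018 (RLE), -0.0122 (TMM without hair genes), -0.0091 (mean of at least 5 CPM), -0.001 (second gene set), -0.0015 (DESeq2), -0.1346 (no replicate block), -0.3563 (without month 12) and -0.38 to 0.31 with a library left out. MCM3 was 0.0075 with library totals, 0.0945 and 0.1042 in limma. CENPF was 0.0775 with library totals, 0.0585 in the second gene set, 0.1635 and 0.2043 in limma and -0.61 to 0.39 with a library left out. MKI67 ran from -0.015 (without milk goat month 12, which removes the breed comparison at month 12) to 1.03 with a library left out. NUSAP1 was -0.041 in milk goats with library totals (-0.29 to 0.85 with a library left out) and -0.7834 by half-year in the second gene set (-0.53 to 0.63). MCM2 in cashmere goats was -0.0512 with library totals (-0.24 to 0.30). Depth limits CCNB1 most, with 5 reads in milk goats at month 12.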

Other observations

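The length behind each gene's FPKM, on a relative scale from counts over FPKM, was set against 9 breed or month differences over genes, chosen after the data were seen. Spearman's rho over the 30 members ran from -0.387 to 0.237, and over 13575 genes tested from -0.247 to 0.118. By role it ran from -0.648 to 0.139 over the 10 S phase members and from -0.538 to 0.334 over the 20 mitosis members. These are descriptions across genes, which are not independent replicates.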
